A study of Mus musculus with 6 samples.

Results

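The 10 long noncoding RNA genes described here are Malat1, Neat1, Miat, Snhg1, Snhg3, Snhg11, Gas5, Pvt1, Sox2ot and Rmst. Their members on the array are the probe sets that the platform annotation pairs with exactly 1 gene, that gene being on this list. There are 31 such probe sets, of 34945 that are paired with 1 gene and 45037 that are not controls. They were measured in neural stem cells sorted from brains of adult mice, out of the ventricular-subventricular zone, a germinal layer beside the lateral ventricles. Activated neural stem cells were sorted as GFAP::GFP+, CD133+, EGFR+ and CD24-, and quiescent neural stem cells as GFAP::GFP+, CD133+ and CD24-. Both populations therefore carried the same reporter, in which the promoter of the astrocyte gene GFAP drives green fluorescent protein, and both were selected on CD133, a stem cell surface protein. The label of the activated cells adds the receptor for epidermal growth factor. The label of the quiescent cells names no sort on that receptor. For each of the 2 populations there were 3 one-colour arrays, called biological replicates in the labels, which do not say how many animals were pooled or give their strain, sex or exact age.

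Long noncoding RNAs act as RNA and are not translated into a known protein. Malat1 gathers in nuclear speckles, the bodies that store splicing factors, while Neat1 is the scaffold around which paraspeckles assemble, and Miat, also called Gomafu, forms nuclear foci of its own. Snhg1, Snhg3, Snhg11 and Gas5 are snoRNA host genes, whose introns are cut out and trimmed into small nucleolar RNAs that guide the chemical modification of ribosomal RNA. The spliced exons of Gas5 are known to be degraded on ribosomes by nonsense-mediated decay, and its start site carries the pyrimidine tract of genes for the translation machinery. Rmst and Sox2ot are neural transcripts tied to the pluripotency and stem cell factor Sox2, and Pvt1 is the transcript next to the oncogene Myc. In the RefSeq gene table, 8 snoRNA genes lie within Snhg1, 8 within Gas5, 2 within Snhg3 and 2 within Snhg11. Sox2ot holds the microRNA gene Mir1897 and Rmst holds Mir1251.

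The members fall into the host genes, whose transcripts often start in a run of C and T bases, and the others. For this reason the stretch around the annotated start of 4 members is given, each with 250 bases before and 50 bases from the start, from RefSeq on build GRCm38.p6, written in the direction of transcription. Capitals mark a run of at least 5 C or T bases within 10 bases of the start and, in Snhg1, the letters TTTGGCGC, an E2F type motif that here lies on the reverse strand and so reads GCGCCAAA. Snhg1 lies at chr19:8723237-8723536 on the plus strand, the second start of Gas5 at chr1:161034916-161035215 on the plus strand, Miat at chr5:112228899-112229198 on the minus strand and Malat1 at chr19:5802623-5802922 on the minus strand.
Snhg1: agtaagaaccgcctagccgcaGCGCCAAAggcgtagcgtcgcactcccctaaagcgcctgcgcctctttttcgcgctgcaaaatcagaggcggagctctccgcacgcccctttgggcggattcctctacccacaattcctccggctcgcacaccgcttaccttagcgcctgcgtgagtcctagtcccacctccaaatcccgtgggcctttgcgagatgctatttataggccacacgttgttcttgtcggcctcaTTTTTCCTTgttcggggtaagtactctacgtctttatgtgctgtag
Gas5, second start: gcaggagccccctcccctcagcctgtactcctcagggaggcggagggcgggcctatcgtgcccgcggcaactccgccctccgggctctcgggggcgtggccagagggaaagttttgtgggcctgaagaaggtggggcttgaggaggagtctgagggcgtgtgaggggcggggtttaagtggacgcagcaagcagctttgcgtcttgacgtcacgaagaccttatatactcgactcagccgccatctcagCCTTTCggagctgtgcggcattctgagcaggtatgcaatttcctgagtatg
Miat: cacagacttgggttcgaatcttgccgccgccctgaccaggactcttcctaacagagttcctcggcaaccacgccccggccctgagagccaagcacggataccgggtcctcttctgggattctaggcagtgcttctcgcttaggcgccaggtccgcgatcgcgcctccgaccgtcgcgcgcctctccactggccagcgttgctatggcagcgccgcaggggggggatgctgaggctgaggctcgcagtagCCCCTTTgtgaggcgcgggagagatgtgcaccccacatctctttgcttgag
Malat1: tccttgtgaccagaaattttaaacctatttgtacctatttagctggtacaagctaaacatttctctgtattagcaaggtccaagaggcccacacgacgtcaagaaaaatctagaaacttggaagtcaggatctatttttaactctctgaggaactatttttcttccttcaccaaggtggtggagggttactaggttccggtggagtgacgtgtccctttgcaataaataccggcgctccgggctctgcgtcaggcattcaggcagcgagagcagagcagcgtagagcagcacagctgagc
The run in Snhg1 is TTTTTCCTT, 9 bases long, with its first base at base 5 of the transcript, counting the start as base 1. The run at the second start of Gas5 is CCTTTC, and that of Miat is CCCCTTT. Snhg3 also has a run, of 5 bases, while Malat1, Snhg11 and the first start of Gas5 have none by this rule. Of 32851 RefSeq mouse promoters of the same length, 45.9% hold such a run, so a match is common. The search also covered the E-box CACGTG, present in 7.15% of promoters, and the E2F type letters TTTGGCGC and TTTCCCGC, present in 0.514% and 1.07%, each read on both strands. Among the members with a promoter in the table, the only match to any of these 3 motifs was the TTTGGCGC match of Snhg1. The other 4 members, Neat1, Pvt1, Sox2ot and Rmst, had no promoter there and were not searched.

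Called probe sets came from 5 of the 10 genes, and each of these genes was called in 1 direction. Of the 27 that were bright enough to test, 6 were higher and 10 lower in activated cells, and 11 were not called at an adjusted p under 0.05 in the limma fit across all probe sets. Over all 27022 probe sets tested, 31.0% were called, 14.4% higher and 16.7% lower. The activated and quiescent arrays did not overlap for 18 of the 27 tested probe sets, beside 47.4% of all probe sets tested, and for 1 of the 4 untested ones. Several probe sets read the same transcript, so these counts are dominated by Malat1 and Snhg1. Counted once a gene by the brightest probe set, 9 of the 10 genes were tested, 2 were higher, 3 were lower and 4 were not called, beside 34.9% of 11575 genes called. The higher genes were Miat and Snhg1, and the lower ones were Neat1, Rmst and Malat1.

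**Figure D1:**
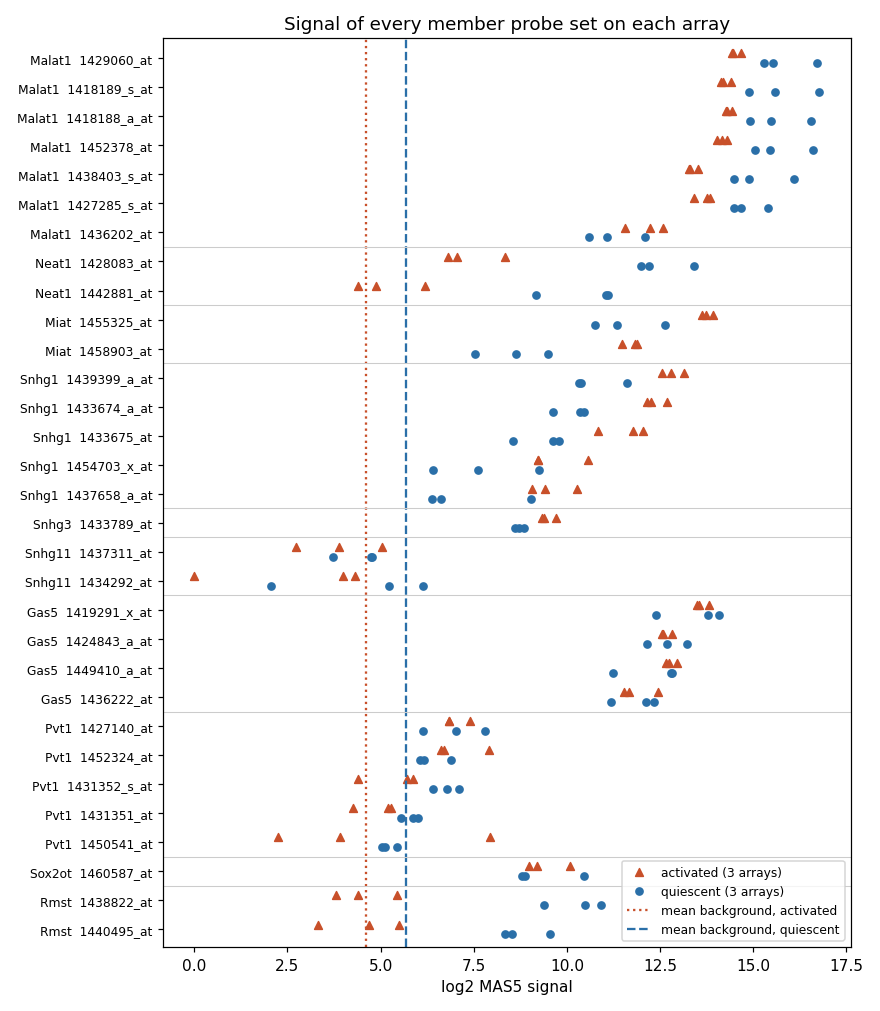
The log2 MAS5 signal (horizontal axis) of each of the 31 member probe sets (rows) is plotted for the 3 activated arrays (triangles) and the 3 quiescent arrays (circles), with the mean background of each group as a vertical line. Neat1 and Rmst separate by the widest gaps. The activated arrays of Rmst and of Neat1 1442881_at are at or near background and those of Neat1 1428083_at lie above it, while the circles and triangles of Gas5 overlap.

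**Figure D2:**
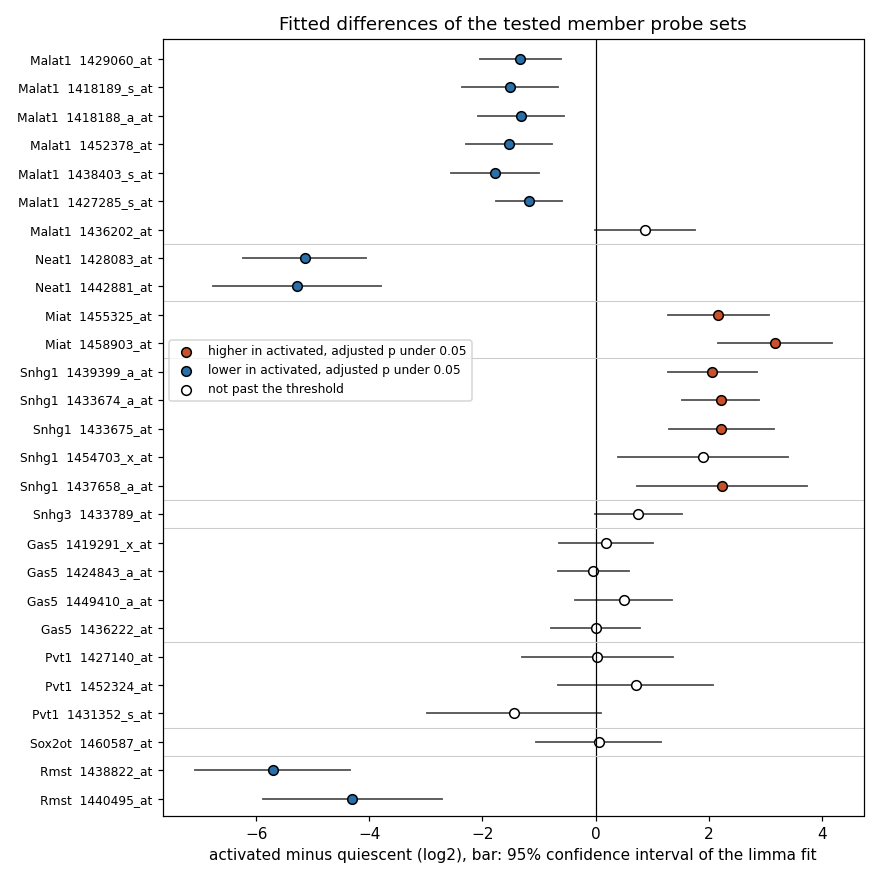
Fitted differences, activated minus quiescent on the log2 scale (horizontal axis), are drawn for the 27 tested probe sets with bars for the 95% confidence interval of the limma fit. Filled points passed the threshold, and of these the 2 Neat1 and 2 Rmst points lie furthest to the left. For Malat1, 1 open point, which did not pass, lies to the right of 0 while the other 6 lie to the left.

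The scale and purity of the sorted samples come with every value that follows. All signals were scaled by the authors to a common trimmed mean, and the median difference over all tested probe sets was -0.11. The bacterial hybridisation controls, added in equal amount in the usual protocol, were dimmer on activated arrays, with means of 13.7 ± 0.05 in activated and 14.3 ± 0.53 in quiescent samples on the log2 scale (SD, n = 3 each, two-sided exact permutation p = 0.1, the smallest that 3 against 3 arrays allow). Scaling to those controls moved the median difference to 0.53. Background averaged 4.60 ± 0.07 on activated arrays and 5.67 ± 0.37 on quiescent arrays (SD, n = 3 each). The 3′ minus 5′ difference of the Gapdh control, a sign of RNA integrity and amplification length, averaged 1.37 ± 0.17 on activated arrays and 2.05 ± 0.52 on quiescent arrays, and was highest on quiescent array 1. For the beta-actin control it averaged 0.07 ± 0.16 on activated and -0.05 ± 0.16 on quiescent arrays (SD, n = 3 each, two-sided exact permutation p = 0.4). There it was lowest on quiescent array 1, at -0.24.

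Markers of the labelled cell type were present: 9 of 9 matched stem cell and astrocyte genes were above background on every array, with a summed log2 signal of 15.3 to 15.5 in activated and 16.2 to 16.9 in quiescent samples. Of these 9, 5 were lower in activated cells (Gfap, Slc1a3, Slc1a2, Aqp4 and Prom1) and 2 were higher (Egfr and Nes). Gfap, Egfr and Prom1, the gene of CD133, are also in the sort labels, so their presence does not test purity. Markers of other cell types moved with the groups as well. All 7 matched mature oligodendrocyte genes were lower in activated cells, where they summed to 11.0 to 12.4 against 13.9 to 15.9 in quiescent cells, and the brightest, Cnp, averaged 11.1 ± 0.42 in activated and 13.3 ± 1.06 in quiescent samples (SD, n = 3 each). Endothelial genes summed to 6.61 to 7.17 in activated and 9.69 to 11.5 in quiescent samples, with Pecam1, Kdr and Tek at background on every activated array, and 3 of 3 tested were lower. Ependymal genes summed to 8.61 to 8.75 in activated and 11.6 to 12.6 in quiescent samples, with 2 of 2 tested lower. Pericyte genes summed to 7.86 to 9.00 in activated and 11.9 to 12.8 in quiescent samples, with 2 of 3 tested lower. Microglial genes summed to 6.51 to 7.16 in activated and 8.50 to 8.93 in quiescent samples, and Aif1, C1qa and Tmem119 were at background on every array of both groups. Of 7 neuroblast genes 4 were higher in activated cells, while Tubb3, Sp8 and Nrxn3 were not called. The 7 genes summed to 14.7 to 15.0 in activated and 11.2 to 13.1 in quiescent cells. The brightest, Dlx2, averaged 13.6 ± 0.07 in activated and 10.4 ± 0.44 in quiescent samples (SD, n = 3 each). Mature neuron genes summed to 10.9 to 11.9 in activated and 10.6 to 11.1 in quiescent samples, with 1 of 4 tested higher. The part of these cell types in the values of the long noncoding RNAs was not tested. In such pooled samples, fewer or more cells of a type cannot be told apart from less or more RNA per cell.

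Among the nuclear body RNAs, Neat1, the paraspeckle scaffold, was far lower in activated cells. Its brighter probe set, 1428083_at, read 8.34, 6.80 and 7.04 on the activated arrays and 13.4, 11.996 and 12.2 on the quiescent arrays, in log2 signal. Every activated array lay below every quiescent one by a wide gap. The fitted difference was -5.14 ± 0.49 (SE), a level 35.4-fold lower in activated cells (limma adjusted p = 7.81e-05). Its size was larger than that of 99.1% of the tested probe sets. The tested oligodendrocyte, endothelial and ependymal markers given above were all lower in the same samples. So were 2 of 3 tested pericyte markers and 5 of 9 stem cell and astrocyte markers. The part of these cell types in the values of Neat1 was not tested. The second probe set, 1442881_at, read 4.88, 4.38 and 6.18 on the activated arrays and 11.1, 11.0 and 9.16 on the quiescent arrays. On this probe set 1 activated array was at background, so the fold is a lower bound, at least 37.8-fold lower in activated cells (log2 difference -5.29 ± 0.67 SE, limma adjusted p = 0.000311). Here and below, background is the 95th percentile of 27 bacterial control probe sets, and a bound sets each lower array to the larger of background and its signal.

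Malat1, the nuclear speckle RNA, was lower in activated cells on 6 of its 7 probe sets, by a much smaller step than Neat1. The brightest, 1429060_at, read 14.7, 14.4 and 14.5 on the activated arrays and 16.7, 15.5 and 15.3 on the quiescent arrays. The activated arrays lay close together, and quiescent array 1 stood above the other quiescent arrays. The difference was -1.33 ± 0.33 (SE), or 2.51-fold lower (limma adjusted p = 0.0113). Probe set 1438403_s_at had the largest difference, with 13.5, 13.3 and 13.3 on the activated arrays and 16.1, 14.9 and 14.5 on the quiescent arrays (-1.78 ± 0.35 SE, limma adjusted p = 0.00367). The 4 other lower probe sets, 1418189_s_at, 1418188_a_at, 1452378_at and 1427285_s_at, differed by -1.52, -1.32, -1.53 and -1.18 (limma adjusted p = 0.0127, 0.0156, 0.00691 and 0.00746), each without overlap of the arrays. Their activated arrays read between 13.4 and 14.4 and their quiescent arrays between 14.5 and 16.8. All 6 lower probe sets lay at or above percentile 99.9 of mean level, and the highest value of all was 17.06. Whether the top of the range limited the size of these steps was not tested.

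These Malat1 calls were sensitive to scaling, to the variance model and to single arrays. With each array centred on its median only 1438403_s_at kept its call (-1.23 on the log2 scale), and with scaling to the hybridisation controls 3 of the 6 kept theirs. The direction of all 6 stayed lower under both. Quiescent array 1 was the brightest quiescent array for all 7 Malat1 probe sets. Of all 6 arrays, it had the highest hybridisation controls, Gapdh 3′ minus 5′ difference and background, and the lowest actin 3′ minus 5′ difference. Without it the difference of 1429060_at was -0.89 (limma adjusted p = 0.00531), and with quantile normalization of all arrays it was -0.53 (limma adjusted p = 0.0244). Without the variance trend the calls of 1429060_at, 1418189_s_at, 1418188_a_at and 1427285_s_at were lost (limma adjusted p = 0.0606, 0.0588, 0.0702 and 0.0534). The call of 1418188_a_at was lost without activated array 2 or activated array 3 (limma adjusted p = 0.0536 and 0.0540).

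The seventh Malat1 probe set, 1436202_at, went the other way. It read 12.6, 12.2 and 11.6 on the activated arrays and 12.1, 11.1 and 10.6 on the quiescent arrays, so the groups overlapped. The difference of 0.88 ± 0.40 (SE, 95% confidence interval -0.01 to 1.76) was not called (limma adjusted p = 0.122). It was called higher with median centring (1.43, limma adjusted p = 0.0299), with hybridisation control scaling (1.52, limma adjusted p = 0.0116) and without quiescent array 1 (1.30, limma adjusted p = 0.0234). The same held with the replicate number as a block (limma adjusted p = 0.0432). A constant shift of an array cancels when its probe sets are set against each other. The gap between 1436202_at and the mean of the 6 others was -1.92 ± 0.48 in activated and -4.24 ± 0.04 in quiescent samples (log2, SD, n = 3 each), a change of 2.32 with no overlap (two-sided exact permutation p = 0.1). This contrast and the other within-array contrasts were chosen after the values were seen. The size of a gap depends on the probes, and its change may depend on them as well. Where on the transcript each probe set lies is not given in the files used here.

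Miat moved opposite to Neat1 and Malat1. Probe set 1455325_at read 13.9, 13.6 and 13.7 on the activated arrays and 12.6, 11.4 and 10.8 on the quiescent arrays. Probe set 1458903_at read 11.9, 11.8 and 11.5 on the activated arrays and 8.64, 9.49 and 7.52 on the quiescent arrays. On both, the activated arrays were tightly grouped and all above the quiescent ones. The differences were 2.17 ± 0.40 and 3.17 ± 0.46 (SE), 4.51-fold and 9.02-fold higher in activated cells (limma adjusted p = 0.00254 and 0.000605). Of the 7 neuroblast markers given above, 4 were called higher as well, and their part in the values of Miat was not tested. Both calls for Miat and both for Neat1 held in every alternative in which the probe set was tested. Within arrays, the gap of Miat to Malat1 was -0.76 ± 0.05 in activated and -4.26 ± 0.23 in quiescent samples, a change of 3.50 (log2, SD, n = 3 each, two-sided exact permutation p = 0.1). The gap of Neat1 to Malat1 was -7.12 ± 0.69 in activated and -3.31 ± 0.23 in quiescent samples, a change of -3.82 (two-sided exact permutation p = 0.1, n = 3 each). Neither pair of groups overlapped on these values, and a constant shift of an array leaves such a gap as it is.

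**Figure D3:**
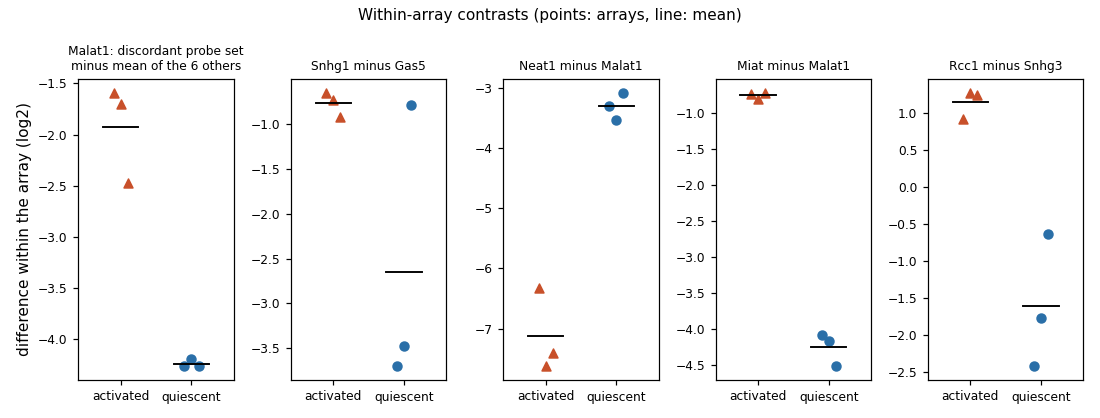
Each panel plots a log2 difference within an array (vertical axis, log2 units, with its own range). The 3 activated (triangles, left) and the 3 quiescent arrays (circles, right) are shown, with a line at the group mean. The first panel sets Malat1 1436202_at against the mean of the other Malat1 probe sets, and each other panel sets a pair of probe sets against each other. The groups are apart in 4 panels, and in the Snhg1 minus Gas5 panel quiescent array 3 lies among the activated arrays.

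The proteins of the bodies around these RNAs were taken as a list. Of 19 tested genes of paraspeckle and nuclear speckle proteins, 9 were higher and 1 was lower in activated cells, with a median log2 difference of 0.65 beside 0.01 for all genes tested. Over all genes tested 17.3% were called higher and 17.6% lower. The largest increases were of Nudt21 and Dazap1, RNA-binding proteins of 3′ end processing and paraspeckles, by 1.71 ± 0.26 and 1.61 ± 0.29 (SE, limma adjusted p = 0.000773 and 0.00186), and of the paraspeckle protein Rbm14, by 1.21 ± 0.34 (SE, limma adjusted p = 0.0188). Son, a core protein of nuclear speckles, was the lower one, at 12.9, 13.0 and 12.8 on the activated arrays and 14.7, 14.3 and 13.5 on the quiescent arrays (-1.29 ± 0.30 SE, limma adjusted p = 0.00828). Its call was lost under both other scalings named above. Without activated array 1, 2 or 3 in turn the count of higher genes was 3.

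Rmst, a noncoding RNA of the developing brain known in human cells to bind SOX2, had the largest difference of the 31 probe sets. Probe set 1438822_at read 3.81, 4.40 and 5.44 on the activated arrays and 10.5, 10.9 and 9.39 on the quiescent arrays. Here 2 activated arrays were at background, and Rmst was at least 41.8-fold lower in activated cells (log2 difference -5.71 ± 0.62 SE, limma adjusted p = 0.000147). Probe set 1440495_at read 4.68, 3.31 and 5.49 on the activated arrays and 8.51, 8.34 and 9.53 on the quiescent arrays. It was at least 14.9-fold lower in activated cells, with 1 activated array at background (log2 difference -4.30 ± 0.71 SE, limma adjusted p = 0.00138). Both probe sets were thus near the floor in activated cells and well above it in quiescent cells, and both calls held in every alternative in which they were tested. The part of the same cell types in the values of Rmst was not tested either. Nedd1, the centrosome gene nearest to Rmst on one side, moved the other way: it read 9.02, 9.30 and 8.73 on the activated arrays and 7.29, 6.87 and 7.25 on the quiescent arrays (1.88 ± 0.43 SE, limma adjusted p = 0.00719).

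Sox2ot, the long transcript that spans Sox2, showed no call. Its probe set 1460587_at read 10.1, 9.19 and 8.99 on the activated arrays and 8.87, 8.78 and 10.5 on the quiescent arrays. A single array of each group stood above the rest, and the difference was 0.05 with a 95% confidence interval of -1.06 to 1.16 (limma adjusted p = 0.945). Sox2 itself read 12.1, 12.2 and 12.04 on the activated arrays and 12.6, 12.6 and 12.4 on the quiescent arrays. Its arrays did not overlap, yet the difference of -0.40 ± 0.23 (SE) was not called (limma adjusted p = 0.186), and its sign turned with median centring (0.15) and hybridisation control scaling (0.24).

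Of the snoRNA host genes, Snhg1 was higher in activated cells on 4 of its 5 probe sets. Its brightest, 1439399_a_at, read 13.1, 12.8 and 12.6 on the activated arrays and 10.4, 10.3 and 11.6 on the quiescent arrays. The groups did not overlap, and quiescent array 3 was closest to the activated ones. The difference was 2.07 ± 0.36 (SE), 4.19-fold higher (limma adjusted p = 0.00174). Probe set 1433674_a_at read 12.7, 12.1 and 12.3 on the activated arrays and 10.5, 10.4 and 9.63 on the quiescent arrays (2.22 ± 0.31 SE, 4.64-fold, limma adjusted p = 0.000494). Here quiescent array 3 was instead the lowest. The third, 1433675_at, differed by 2.23 ± 0.42 (SE, limma adjusted p = 0.00288).

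The dimmer Snhg1 probe sets had the same direction with a wider spread. Probe set 1437658_a_at read 10.3, 9.41 and 9.07 on the activated arrays and 6.62, 9.03 and 6.37 on the quiescent arrays (2.24 ± 0.68 SE, limma adjusted p = 0.0289). Its call was lost without activated array 1, activated array 2, quiescent array 1 or quiescent array 3 (limma adjusted p between 0.0672 and 0.112). It was lost without the variance trend as well (limma adjusted p = 0.0557). Probe set 1454703_x_at read 10.6, 9.22 and 9.21 on the activated arrays and 7.63, 9.26 and 6.39 on the quiescent arrays, and was not called (1.91 ± 0.68 SE, limma adjusted p = 0.0555). Quiescent array 2 was the high one on both. Without it, 1454703_x_at was called (2.66, limma adjusted p = 0.0129), as it was with median centring, hybridisation control scaling, the 60th percentile filter, a pseudocount or values raised to background (limma adjusted p between 0.0124 and 0.0487). With the replicate number as a block, 1454703_x_at was called as well (limma adjusted p = 0.0413). Of the nearest protein-coding genes of Snhg1, Wdr74, which takes part in making ribosomes, was higher at 10.1, 10.3 and 9.81 on the activated arrays and 7.36, 8.30 and 8.89 on the quiescent arrays (1.87 ± 0.44 SE, limma adjusted p = 0.00827). On the other side Slc3a2, the heavy chain of amino acid transporters, differed by -0.04 (limma adjusted p = 0.934).

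Gas5, the host with as many snoRNA genes as Snhg1 in the RefSeq table, had no called probe set. Its brightest, 1419291_x_at, read 13.8, 13.5 and 13.5 on the activated arrays and 14.1, 13.8 and 12.4 on the quiescent arrays. The groups overlapped, with quiescent array 3 below all others. The difference was 0.18 (95% confidence interval -0.65 to 1.02, limma adjusted p = 0.741). The others, 1424843_a_at, 1449410_a_at and 1436222_at, differed by -0.04, 0.50 and 0.00, with 95% confidence intervals of -0.67 to 0.60, -0.35 to 1.35 and -0.79 to 0.79 (limma adjusted p = 0.937, 0.349 and 0.997). Their arrays overlapped as well, and quiescent array 3 was the lowest array on all 4. With hybridisation control scaling 1449410_a_at was called higher (1.14, limma adjusted p = 0.0492). The gap of Snhg1 to Gas5 within an array was -0.77 ± 0.14 in activated and -2.65 ± 1.62 in quiescent samples (log2, SD, n = 3 each), a change of 1.88 that did not separate the groups on the brightest probe sets (two-sided exact permutation p = 0.2). Quiescent array 3, at -0.79, lay among the activated arrays, and the other 2 quiescent arrays were at -3.70 and -3.47. Each of the 4 other Snhg1 probe sets separated the groups against the same Gas5 probe set. That of 1433674_a_at was -1.12, -1.40 and -1.21 on the activated arrays and -3.62, -3.44 and -2.77 on the quiescent arrays, a change of 2.03 (two-sided exact permutation p = 0.1). Over all 20 pairs of a Snhg1 and a Gas5 probe set, the groups were apart in 18, and the pairs share arrays and transcripts. Zbtb37, a zinc finger gene that overlaps Gas5, differed by -0.14 (limma adjusted p = 0.838).

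Snhg3, with a single probe set, was slightly above in activated cells and not called. Probe set 1433789_at read 9.39, 9.71 and 9.33 on the activated arrays and 8.86, 8.60 and 8.71 on the quiescent arrays. The groups did not overlap, but the difference of 0.76 ± 0.35 (SE, 95% confidence interval -0.01 to 1.52) missed the threshold (limma adjusted p = 0.123). It was called with median centring (1.31, limma adjusted p = 0.0258) and with hybridisation control scaling (1.40, limma adjusted p = 0.0466). Rcc1, its nearest protein-coding neighbour on one side and the exchange factor that loads Ran on chromatin, read 10.3, 11.0 and 10.6 on the activated arrays and 6.44, 6.82 and 8.07 on the quiescent arrays. It was 11.4-fold higher in activated cells (3.51 ± 0.48 SE, limma adjusted p = 0.000407). Within arrays the gap of Rcc1 to Snhg3 was 1.14 ± 0.20 in activated and -1.61 ± 0.90 in quiescent samples, a change of 2.76 with no overlap (two-sided exact permutation p = 0.1, n = 3 each). Trnau1ap, further along, differed by 0.58 (limma adjusted p = 0.157).

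Snhg11, a host known from neurons, was at or near background on both groups of arrays and was not tested. Probe set 1437311_at read 2.73, 3.89 and 5.04 on the activated arrays and 4.75, 4.76 and 3.72 on the quiescent arrays. Probe set 1434292_at read 0, 4.31 and 3.99 on the activated arrays and 6.15, 2.07 and 5.22 on the quiescent arrays. Of these 12 readings, 1 on an activated and 1 on a quiescent array lay above the background of their array, so no level is given. Its neighbour Ralgapb, a regulator of Ral GTPases, differed by -0.19 (limma adjusted p = 0.698).

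Set beside these members, 13 other noncoding snoRNA host genes were tested, of which limma called 3 higher and 0 lower (6 and 1 at an unadjusted p under 0.05). Their median log2 difference was 0.60. The called genes were Zfas1 at 2.14 ± 0.41, Snhg6 at 1.31 ± 0.29 and Snhg5 at 1.08 ± 0.26 (SE, limma adjusted p = 0.00269, 0.00611 and 0.00862). Of 14 protein-coding snoRNA hosts, 6 were called higher and 0 lower in limma (7 and 1 at an unadjusted p under 0.05), with a median of 0.74. Beside Rcc1 these included the ribosomal protein gene Rpl7a at 1.42 ± 0.21 and the elongation factor gene Eef1b2 at 1.36 ± 0.26 (SE, limma adjusted p = 0.000676 and 0.00295). Rcc1 is counted both here and among the genes next to the members. Whether it holds a snoRNA gene of its own was not checked, and the 2 named above lie within Snhg3. Without quiescent array 3, 2 protein-coding hosts were called lower. Higher calls were 23.1% of the noncoding and 42.9% of the protein-coding hosts, beside 17.3% of all genes tested. No share over all genes was taken for the unadjusted counts, here or below.

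Of the lists described, the proteins that package snoRNAs had the highest median difference. Of 19 tested genes of snoRNP core and assembly proteins, limma called 14 higher and 0 lower (17 and 0 at an unadjusted p under 0.05), with a median log2 difference of 1.73 beside 0.01 for all genes. Dkc1, the pseudouridine synthase of H/ACA particles, read 13.1, 13.6 and 13.3 on the activated arrays and 8.95, 8.79 and 10.6 on the quiescent arrays (3.90 ± 0.44 SE, limma adjusted p = 0.000148). The H/ACA protein Nop10 was higher by 2.99 ± 0.49 and the C/D protein Nop58 by 2.57 ± 0.34 (SE, limma adjusted p = 0.00109 and 0.00035). The count of 14 fell to 9 without activated array 2 or activated array 3. Nonsense-mediated decay factors, which degrade spliced host transcripts such as Gas5, had 2 of 11 tested genes called higher and 0 lower in limma (3 and 0 at an unadjusted p under 0.05) and a median of 0.05. These were Smg8 at 1.55 ± 0.49 and Rbm8a at 1.02 ± 0.33 (SE, limma adjusted p = 0.0317 and 0.0339), and without any 1 of the activated arrays 0 were called higher. Higher calls were 73.7% of the snoRNP genes and 18.2% of the decay factors, the latter near the 17.3% of all genes tested.

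**Figure D4:**
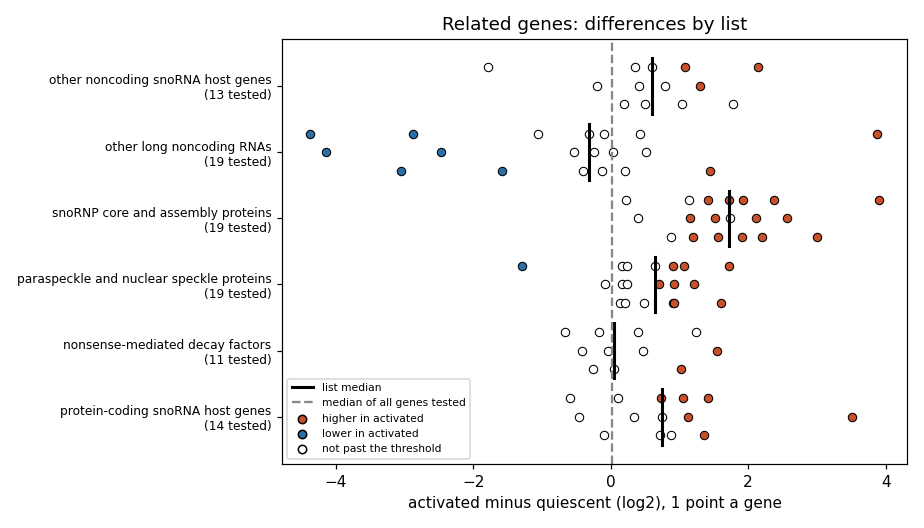
Each point is 1 tested gene placed by its activated minus quiescent difference on the log2 scale (horizontal axis), with 1 row of points per gene list, a black line at the list median and a dashed line at the median of all genes tested. The snoRNP proteins lie furthest to the right with a median of 1.73, and the other long noncoding RNAs reach furthest to the left.

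Pvt1 was dim throughout. Probe set 1427140_at read 7.39, 6.84 and 6.84 on the activated arrays and 7.02, 7.81 and 6.15 on the quiescent arrays, with a difference of 0.03 (95% confidence interval -1.31 to 1.36, limma adjusted p = 0.976). Probe set 1452324_at read 7.91, 6.63 and 6.71 on the activated arrays and 6.89, 6.16 and 6.06 on the quiescent arrays (0.71 ± 0.62 SE, limma adjusted p = 0.408). Both overlapped between the groups. Probe set 1431352_s_at read 5.87, 4.40 and 5.71 on the activated arrays and 6.79, 6.41 and 7.09 on the quiescent arrays, without overlap and without a call (-1.44 ± 0.70 SE, limma adjusted p = 0.139). The untested 1431351_at read 5.27, 4.26 and 5.20 on the activated arrays and 6.00, 5.54 and 5.88 on the quiescent arrays. The untested 1450541_at read 7.95, 2.26 and 3.91 on the activated arrays and 5.12, 5.44 and 5.05 on the quiescent arrays, with activated array 1 alone well above background. The probe sets of Pvt1 thus differed in sign, and none was called. Myc, its neighbour, read 7.81, 8.47 and 9.34 on the activated arrays and 7.58, 7.58 and 8.96 on the quiescent arrays (0.50 ± 0.56 SE, limma adjusted p = 0.509).

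Large decreases were not limited to Neat1 and Rmst. Of 19 other long noncoding RNAs tested, 6 were lower and 2 higher in activated cells, with a median of -0.32 beside 0.01 for all genes. Under hybridisation control scaling these medians were 0.33 and 0.66. Of these RNAs 31.6% were called lower and 10.5% higher, beside 17.6% and 17.3% of all genes tested. Rian and Meg3, imprinted transcripts of the Dlk1 region, differed by -4.37 ± 0.51 and -4.14 ± 0.46 (SE, limma adjusted p = 0.000178 and 0.000139). Mir22hg, the host of a microRNA, was at least 7.77-fold lower (-3.04 ± 0.59 SE, limma adjusted p = 0.00311). Dlx6os1, the antisense partner of a Dlx gene of inhibitory neurons, was at least 11.7-fold higher (3.87 ± 0.54 SE, limma adjusted p = 0.000479). Among the genes next to the members, 12 were tested, and limma called 3 higher (Rcc1, Wdr74 and Nedd1) and 0 lower (3 and 0 at an unadjusted p under 0.05), with a median of -0.04. Higher calls were thus 25% of these neighbours, beside 17.3% of all genes tested. The remaining neighbours, Frmd8 beside Neat1, Ltbp3 near Malat1 and Crybb1 near Miat, differed by -0.08, -0.21 and -0.03 (limma adjusted p = 0.918, 0.597 and 0.968). For Ltbp3 the mean of its probe sets differed by -1.23 and the brightest probe set not ending in _x_at or _s_at by -1.44, both called lower (limma adjusted p = 0.0309 and 0.00367), so with either rule 1 neighbour was lower. Cryba4 was too dim to test.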

How the data were processed

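RNA of sorted mouse neural stem cells was measured on 6 one-colour arrays. The labels' protocols give a miRNeasy extraction, NuGEN Pico amplification and biotin labelling. The deposited values are the authors' log2 signals, with MAS5 as the tool per the submitters' processing notes, and its version is not given in the sources used here. No pseudocount was added to the deposited values. Scaling to a common trimmed mean hides any difference in total RNA, and values near background are noisy. The number of arrays limits the precision.

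Leaving out 64 control probe sets, of the rest, 932 had several genes and 9160 none, and 99.4% of Entrez identifiers were found in RefSeq (GRCm38.p6). Probe sets with a mean under the 40th percentile (log2 6.02) were not tested. The test was lmFit and eBayes, with a variance trend, in limma 3.58.1 (R 4.3.3), with Benjamini-Hochberg adjustment over all 27022 probe sets for members, or over 11575 genes, each by its brightest probe set, for lists. The calculation was tested on simulated data. The members and gene lists were chosen with earlier results of these data known. The text names all members and neighbours, from each list the 3 called genes with the largest difference in the main direction and 1 in the other, and markers. Other markers and the within-array contrasts were named after their values were seen. Alternatives covered filters, scalings, a pseudocount, a floor, the variance trend, probe set rules, a replicate block and each array left out in turn. Figures were drawn with matplotlib 3.10.9.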

Additional observations from a re-analysis of the deposited data

How the results depend on the processing

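Hybridisation control scaling was known from earlier work on these data. Of the single values for member probe sets and neighbours, 532 kept their direction and side of the threshold, 19 lost and 18 gained a call, and 43 changed sign. Probe sets higher among the members numbered 6, and 10 with hybridisation control scaling. Those lower numbered 10, against 5 with median centring and 6 without the variance trend, where the 4 lost were of Malat1. Over all probe sets, higher calls numbered 3889, against 6967 with median centring, and lower calls numbered 4501, against 2618 with median centring and 1852 with hybridisation control scaling. These scalings made 72.7% and 74.9% of calls higher, against 46.4%. Higher genes numbered 2004, against 3527 with median centring and 3059 with hybridisation control scaling, and lower genes 2040, against 1191 and 943. In the same order, other snoRNA hosts had 6 and 5 higher, protein-coding hosts 10 and 11, and speckle proteins 0 and 0 lower, while decay factors had 5 higher with median centring. Without the trend, 1 other snoRNA host was lower, as after raising values to background, 3 speckle proteins were higher and 1 decay factor was higher. With the 60th percentile filter, 1 other long noncoding RNA and 1 decay factor were higher. With the mean of a gene's probe sets, 5 speckle proteins were higher and 0 lower, and 1 neighbour was lower, as it was without _x_at and _s_at probe sets (Ltbp3, -1.23 and -1.44). The cause was not tested.

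Same-numbered arrays did not deviate together (correlations 0.0297, -0.0914 and 0.00996), and arrays of different numbers gave -0.101 to 0.0825. With 3 arrays a group, these values cannot show whether same-numbered samples were paired. With the replicate block, 1 decay factor was higher, 8 member probe sets were higher, with Malat1 1436202_at (limma adjusted p = 0.0432) and Snhg1 1454703_x_at (limma adjusted p = 0.0413) among them, and 10 lower, and over all probe sets 3738 were higher and 4158 lower.

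With 1 array left out in turn, members had 5 to 7 probe sets higher and 9 to 10 lower. All probe sets had 2518 to 4830 higher and 3176 to 4690 lower, and all genes 1315 to 2440 higher and 1540 to 2176 lower, the lowest counts being without activated array 2. Other snoRNA hosts had 3 to 4 higher, other long noncoding RNAs 6 to 8 lower, snoRNP proteins 9 to 12 higher, speckle proteins 3 to 9 higher, decay factors 0 to 3 higher and 0 to 1 lower, and protein-coding hosts 5 to 6 higher and 0 to 2 lower.

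None of the values that changed sign was called, before or after the change. With median centring and hybridisation control scaling, Gas5 1424843_a_at was 0.52 and 0.61, Ltbp3 0.34 and 0.43, Frmd8 0.47 and 0.56, Crybb1 0.52 and 0.61, Slc3a2 0.51 and 0.60, Ralgapb 0.36 and 0.45, Zbtb37 0.41 and 0.50, and Sox2 0.15 and 0.24. With quantile normalization, Gas5 1436222_at was -0.10, Frmd8 0.13, Crybb1 0.49 and Zbtb37 0.078. With arrays left out, the ranges were -0.33 to 0.51 for Gas5 1419291_x_at, -0.31 to 0.23 for 1424843_a_at, -0.023 to 0.76 for 1449410_a_at, -0.34 to 0.23 for 1436222_at, -0.39 to 0.44 for Pvt1 1427140_at, -0.28 to 0.60 for Sox2ot, -0.39 to 0.080 for Ltbp3, -0.50 to 0.39 for Frmd8, -0.37 to 0.30 for Crybb1, -0.34 to 0.34 for Slc3a2, -0.40 to 0.077 for Ralgapb and -0.44 to 0.24 for Zbtb37.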

Other observations

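A further probe set, 1455904_at, is annotated to both the small nucleolar RNA gene Snord47 and its host Gas5, and so lay outside the rule. It read 11.9, 11.4 and 11.3 on the activated arrays and 10.7, 11.1 and 10.5 on the quiescent arrays. The groups did not overlap, and the difference of 0.79 ± 0.29 (SE) was not called (limma adjusted p = 0.0626). The 4 probe sets annotated to Gas5 alone differed by -0.04 to 0.50.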
